A study of Mus musculus with 6 samples.

Results

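Rundc3b, Ntrk3, Nrn1 and Ankrd33b are 4 protein-coding genes with known or likely roles in neurons, taken out of the 38483 genes counted in an RNA-seq comparison of WT and Nipbl+/- mouse embryonic fibroblasts (MEFs). They were chosen on their large measured differences between Nipbl+/- and WT cultures, so their differences are described here without a test, and no numeric threshold set the choice. All 4 lie on the minus strand, to which 19269 of the counted genes belong. For the remaining 19214 genes, those of the plus strand, the files give 0 throughout, also for genes that every cell uses such as Rplp0 and Ppia, so these zeros are not measurements of expression. No source used here explains them, whether their origin also touches the minus-strand counts was not tested, and no statement is made about the plus-strand genes.

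MEFs are connective tissue cells grown from the minced body of a mid-gestation embryo. Total RNA, depleted of ribosomal RNA, was sequenced from 3 WT and 3 Nipbl+/- cultures on the CD1 strain at passage 3, all grown in DMEM with fetal bovine serum. The Nipbl+/- MEFs were haploinsufficient for Nipbl through a heterozygous knockout, and the WT MEFs came from littermates. The methods describe embryos of 1 pregnant mouse with limbs, brain and internal organs removed, so the embryonic brain was not part of the starting material.

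Nipbl loads the cohesin ring onto chromosomes, and haploinsufficiency of the human gene is the main known cause of Cornelia de Lange syndrome, which affects limbs, growth and the nervous system. Among the 4 genes, Ntrk3 encodes TrkC, the receptor tyrosine kinase for neurotrophin-3, which supports the survival of sensory neurons. Nrn1 encodes neuritin, a small protein anchored to the neuronal surface that promotes neurite growth and synapse maturation and is induced by neuronal activity. Rundc3b encodes an intracellular RUN domain protein that can bind the small GTPase Rap2. Ankrd33b encodes an ankyrin repeat protein whose function is little known, so a neuronal role is least established for it.

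Total counts lay between 20307454 and 25990783 per culture. Nipbl itself was at 136 ± 8.26 CPM (TMM-normalized counts scaled to the library; SD, n = 3) in the WT cultures and at 101 ± 0.505 CPM in the haploinsufficient ones (log2 fold change -0.43, SE 0.06, adjusted p = 0.0213 by edgeR's quasi-likelihood test). That call was lost without WT replicate 1, Nipbl+/- replicate 1 or Nipbl+/- replicate 2, with log2 fold changes of -0.47, -0.43 and -0.44. The RNA protocol in the labels names mouse ES cells, while the labelled source, cell type and growth protocol are those of MEFs. Fibroblast markers (6 tested) summed to between 19400 and 23300 CPM over the 6 cultures, and 0 of them were called by edgeR's quasi-likelihood test, 1 was higher and 2 lower at an unadjusted p under 0.05, and the exact test and DESeq2 each called 1 lower. The sex of the embryos was not balanced, since Ddx3y, from the Y chromosome, was counted more than Xist in 2 WT cultures (replicates 1 and 2) and 1 Nipbl+/- culture (replicate 3), and Xist more than Ddx3y in the other cultures. The difference of each of the 4 genes is therefore also given within these sex classes.

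The promoter sequences show what precedes the start sites of an upregulated and a downregulated member of the group. RefSeq promoter windows on GRCm38.p6, the assembly that mm10 is built from, were matched for 2 of the 4 genes, and Ntrk3 and Nrn1 were not matched. The windows below are the 250 bases before the annotated start, written along the minus strand from 5′ to 3′, at chr5:8622953-8623202 for Rundc3b and chr15:31367760-31368009 for Ankrd33b. Capitals mark GGGCGG, the GC box letters, and CCGCCC, the same letters on the opposite strand.
Rundc3b promoter: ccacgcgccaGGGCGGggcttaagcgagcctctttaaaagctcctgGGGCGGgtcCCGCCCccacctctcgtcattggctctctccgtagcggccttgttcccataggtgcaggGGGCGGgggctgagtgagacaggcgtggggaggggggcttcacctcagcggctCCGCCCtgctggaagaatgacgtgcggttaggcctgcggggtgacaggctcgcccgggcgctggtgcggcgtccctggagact
Ankrd33b promoter: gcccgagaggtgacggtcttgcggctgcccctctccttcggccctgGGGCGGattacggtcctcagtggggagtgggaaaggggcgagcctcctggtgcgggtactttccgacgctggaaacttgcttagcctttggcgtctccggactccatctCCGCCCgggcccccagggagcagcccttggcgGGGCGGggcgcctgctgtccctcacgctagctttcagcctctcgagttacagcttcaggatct

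Both windows were rich in G and C, with a GC content of 69.2% for Rundc3b and 66.4% for Ankrd33b against a median of 52.4% over 32851 RefSeq windows of the same length. The ratio of observed to expected CpG was 0.71 and 0.69, against a median of 0.373. The Rundc3b window held 5 GC boxes, at positions -240, -204, -195, -136 and -83 from the start, and 1.93% of all windows held at least as many. The Ankrd33b window held 3, at positions -204, -95 and -63, and 8.47% of windows held at least as many. At least 1 GC box was present in 32.7% of all windows. The upregulated and the downregulated gene thus shared a GC-rich promoter with several copies of the same letters.

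Further motifs were searched on both strands of the same windows, each allowing overlap with the others. CCAAT, the CCAAT box, occurred once in the Rundc3b window and was present in 33.8% of all windows. GGACAG, taken from the binding element of the neuronal gene repressor REST, occurred once in the Ankrd33b window and in 18.7% of all windows. TATAAA (12.4% of windows), the E-box letters CACGTG (6.02%) and CAGCTG (13.0%), the cAMP response element TGACGTCA (1.55%) and the other REST element letters TTCAGCACC (0.301%) were not found in either window.

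Ntrk3 (ENSMUSG00000059146, chr7:78192362-78578408 on mm10) was upregulated in the Nipbl+/- MEFs as selected. Its counts were 58, 52 and 51 in WT replicates 1 to 3, and 172, 140 and 86 in Nipbl+/- replicates 1 to 3. After TMM normalization these were 2.63, 2.31 and 2.37 CPM in WT and 7.76, 5.35 and 4.11 CPM in Nipbl+/- MEFs. The genotypes did not overlap, and the lowest Nipbl+/- culture, replicate 3, lay 1.56-fold above the highest WT culture. The mean went from 2.44 ± 0.17 to 5.74 ± 1.86 CPM (SD, n = 3 each), a log2 fold change of 1.23 (SE 0.24) or 2.35-fold, with 1.99- to 2.78-fold covering 1 SE on either side. In bulk RNA, more cells that express a gene and more of its RNA per cell cannot be told apart.

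The 3 WT cultures were close to each other for Ntrk3, differing by at most 1.14-fold, while the Nipbl+/- cultures differed by up to 1.89-fold. Within the cultures with Ddx3y above Xist the log2 ratio was 0.73 (2 WT, 1 Nipbl+/-), and within those with Xist above Ddx3y it was 1.47 (1 WT, 2 Nipbl+/-). Nipbl+/- replicate 3, the lowest of its genotype, is the only Nipbl+/- culture of the first class.

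The Ntrk3 counts are counts of a gene with several protein forms. The GENCODE M21 annotation holds 20 Ntrk3 transcripts, of which 6 are coding with 6 different coding lengths between 248 and 2592 bases. Its span of the gene differs from that given with the counts (start by -16403 bases, end by 159604), so these may not all be the transcripts counted. Of 30410 distinct 50-base stretches of these transcripts, 0.529% are also found in other genes. TrkC exists as a full-length receptor with a kinase domain and as truncated receptors without it, and the gene counts do not separate them.

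Rundc3b (ENSMUSG00000040570, chr5:8490334-8622952), the second member higher in Nipbl+/- MEFs, was near the floor of detection in WT. WT replicates 1 to 3 had 7, 6 and 7 counts, and Nipbl+/- replicates 1 to 3 had 55, 50 and 23. In TMM-normalized CPM the WT cultures were at 0.318, 0.267 and 0.325 and the Nipbl+/- cultures at 2.48, 1.91 and 1.10. Every Nipbl+/- culture lay above every WT culture, by at least 3.38-fold. The mean went from 0.303 ± 0.0315 to 1.83 ± 0.695 CPM (SD, n = 3 each), a log2 fold change of 2.58 (SE 0.39) or 5.97-fold, with 4.57- to 7.81-fold within 1 SE.

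The order of the Nipbl+/- cultures for Rundc3b was that of Ntrk3, with replicate 1 highest and replicate 3 lowest. The WT counts rest on 20 reads in all, so the WT level carries a counting error that the close agreement of the 3 values does not show. For the 6 counts of WT replicate 2, the exact 95% Poisson interval runs from 2.2 to 13.1 counts, for counting error only. Within the sex classes the log2 ratio was 1.91 with Ddx3y above Xist and 2.76 with Xist above Ddx3y. The annotation gives Rundc3b 2 coding transcripts and 11 exons in the longest, and none of its 3824 distinct 50-base stretches of transcript is found in another gene.

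Nrn1 (ENSMUSG00000039114, chr13:36725625-36734477) was downregulated in the Nipbl+/- MEFs as selected, and was the most abundant of the 4 genes in WT. Its counts were 205, 110 and 150 in WT replicates 1 to 3 and 39, 41 and 37 in Nipbl+/- replicates 1 to 3. These correspond to 9.30, 4.90 and 6.96 CPM in WT and to 1.76, 1.57 and 1.77 CPM in Nipbl+/- MEFs. Here the spread lay in WT, where the highest culture was 1.9 times the lowest, while the 3 Nipbl+/- cultures differed by at most 1.13-fold. The lowest WT culture, replicate 2, was 2.77-fold above the highest Nipbl+/- culture. The mean went from 7.05 ± 2.2 to 1.70 ± 0.113 CPM (SD, n = 3 each), a log2 fold change of -2.05 (SE 0.25), so that the WT level was 4.15-fold the Nipbl+/- level, with 3.49- to 4.95-fold within 1 SE.

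The Nrn1 difference was almost the same in both sex classes, with a log2 ratio of -2.01 where Ddx3y was above Xist and of -2.07 where Xist was above Ddx3y. The labels and methods do not state that the libraries were stranded. In the M21 annotation Nrn1 shares 501 exonic bases with a transcript of Fars2, a mitochondrial tRNA synthetase gene of the plus strand, and 20.2% of the 50-base stretches of Nrn1 transcripts are also in Fars2. Without strand, reads in this stretch cannot be told apart, and Fars2 was listed at 0. In the gene coordinates given with the counts, however, Fars2 lies 188.0 kb from Nrn1 without overlap. Whether reads of the shared stretch are among the Nrn1 counts was not tested.

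Ankrd33b (ENSMUSG00000022237, chr15:31291479-31367759) had the fewest reads of the 4 genes in Nipbl+/- MEFs. WT replicates 1 to 3 had 49, 72 and 28 counts, and Nipbl+/- replicates 1 to 3 had 8, 12 and 3. In CPM the WT cultures were at 2.22, 3.20 and 1.30 and the Nipbl+/- cultures at 0.361, 0.459 and 0.143. Both genotypes were spread widely, with a highest culture 2.47 times the lowest in WT and 3.2 times the lowest in Nipbl+/- MEFs, yet the lowest WT culture was 2.83-fold above the highest Nipbl+/- culture. The mean went from 2.24 ± 0.953 to 0.321 ± 0.161 CPM (SD, n = 3 each), a log2 fold change of -2.75 (SE 0.46), with the WT level 6.73-fold the Nipbl+/- level and 4.89- to 9.27-fold within 1 SE.

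The Ankrd33b difference was uneven between the sex classes, with a log2 ratio of -4.24 for Ddx3y above Xist and of -1.66 for Xist above Ddx3y. The first value rests on the single Nipbl+/- culture with 3 counts, for which the exact 95% Poisson interval is 0.619 to 8.77 counts. WT replicate 3 was the lowest WT culture and is the only WT culture with Xist above Ddx3y. None of the 8937 transcript stretches of 50 bases in Ankrd33b was shared with another gene.

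**Figure D1:**
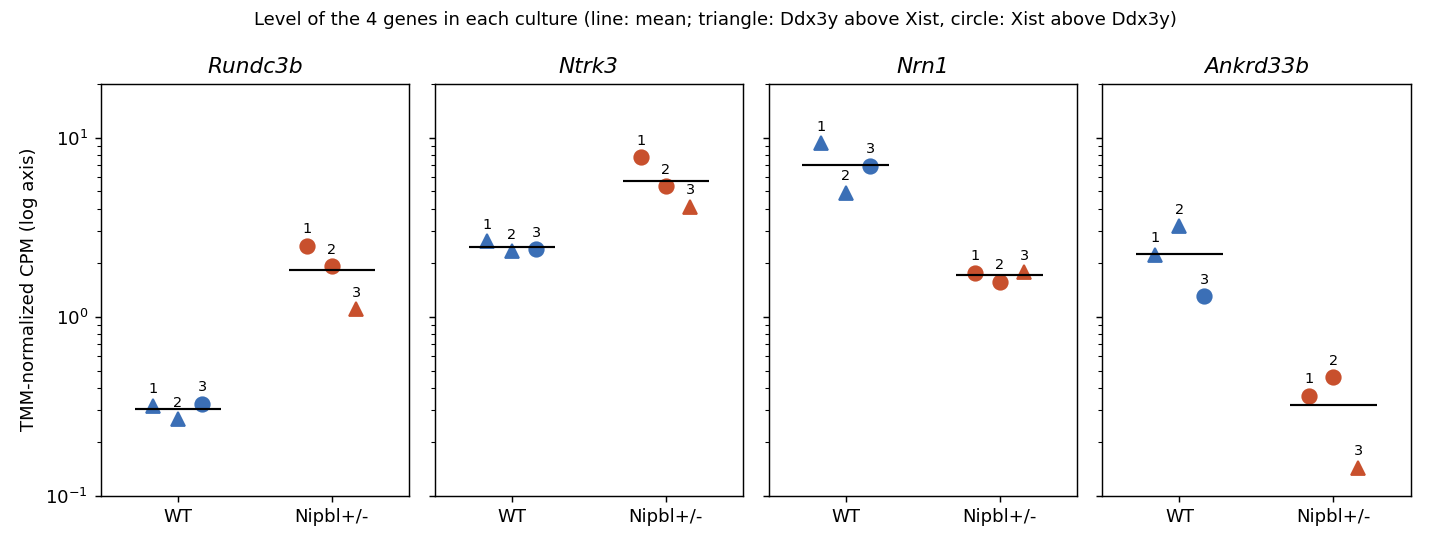
TMM-normalized CPM (log axis) of Rundc3b, Ntrk3, Nrn1 and Ankrd33b in each of the 3 WT and 3 Nipbl+/- cultures, numbered by replicate, with a line at the mean of the genotype; triangles are cultures with Ddx3y above Xist and circles those with Xist above Ddx3y. In each panel the points of the genotypes do not overlap, with the smallest gap for Ntrk3 (1.56-fold) and the widest for Rundc3b (3.38-fold).

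By the choice of members, the genotypes did not overlap for any of the 4. Over the 9061 tested genes, the Nipbl+/- cultures lay above all WT cultures for 12.0% and below all for 10.8%. With edgeR's quasi-likelihood test, 94 tested genes (1.04%) were called higher and 83 (0.916%) lower at an adjusted p under 0.05, and the 4 members, 2 in each direction, were among them because they were picked from this contrast. The count of members past that threshold was 0 without WT replicate 1, Nipbl+/- replicate 1 or Nipbl+/- replicate 2, 2 without WT replicate 3, and 3 without either of the remaining cultures. Few genes of any kind were called in the fits with 0 members. Over all tested genes, 2 were called higher and 4 lower without WT replicate 1. Without Nipbl+/- replicate 1 these were 1 and 2, and without Nipbl+/- replicate 2 they were 3 and 8. The count of members was also 2 with a term for the sex class in the fit, where 90 genes were called higher and 88 lower over all tested genes.

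Ranked by fold change among the genes called in the same direction, Rundc3b was 2nd of 94, between Samsn1 (log2 fold change 2.69), an adaptor of immune cells, and Bcl2a1d (1.95), an antiapoptotic member of a family of near-identical genes between which reads can be split. Ntrk3 was 10th of 94, between Ddc (1.26), the enzyme that makes dopamine and serotonin, and Enpep (1.15), an aminopeptidase. Including genes that were not called, 77 tested genes, Ntrk3 among them, changed by at least as much as Ntrk3 in either direction. That count is not split by direction, so it cannot be set beside the place of 10th of 94. Among the downregulated genes Ankrd33b was 3rd of 83, between Gria2 (-3.44) and Ifi27l2b (-2.61), an interferon-inducible gene of a repeated family. Nrn1 was 7th of 83, between Sh2d6 (-2.3) and Gria4 (-2.02).

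Gria2 and Gria4, the neighbours of Ankrd33b and Nrn1 in that ranking, encode subunits of the AMPA glutamate receptor of excitatory synapses. Gria2 had 37, 13 and 36 counts in WT replicates 1 to 3 and 3, 4 and 1 in Nipbl+/- replicates 1 to 3. Gria4 had 24, 23 and 31 counts in WT and 7, 8 and 5 in Nipbl+/- MEFs. Both receptor genes were thus counted rarely in WT and almost not at all in Nipbl+/- MEFs. The other AMPA receptor genes, Gria1 and Gria3, are on the plus strand and listed at 0.

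RPKM, which divides by gene length, allows the 4 genes to be set in order of level. In WT the order was Nrn1 at 3.80 ± 1.16, Ntrk3 at 0.442 ± 0.0276, Ankrd33b at 0.244 ± 0.1 and Rundc3b at 0.0755 ± 0.00892 RPKM (SD, n = 3). The steps between neighbours in this order were 8.59-, 1.82- and 3.23-fold, and the ranges over the cultures did not overlap at any step. In Nipbl+/- MEFs the order was Ntrk3 at 1.07 ± 0.334, Nrn1 at 0.943 ± 0.0689, Rundc3b at 0.467 ± 0.172 and Ankrd33b at 0.036 ± 0.0179 RPKM. There Ntrk3 and Nrn1 differed by 1.14-fold with overlapping ranges, while the steps from Nrn1 to Rundc3b (2.02-fold) and from Rundc3b to Ankrd33b (13.0-fold) were separate.

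Nrn1 lay above the median level of the genes with counts in WT, and the 4 genes were otherwise below it. Among the genes with counts in a culture, the RPKM of Nrn1 lay at the 52.3rd to 60.3rd percentile in WT and at the 41.5th to 42.4th in Nipbl+/- MEFs. Ntrk3 lay at the 34.9th to 36.2nd and at the 40.1st to 45.7th percentile. Rundc3b moved between the 21.1st to 22.7th percentile in WT and the 31.8th to 38.7th in Nipbl+/- MEFs, and Ankrd33b between the 26.9th to 33.1st and the 14.8th to 19.9th.

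The direction of the 4 differences was the same under 14 other ways of processing. Their choice on this contrast and the lack of overlap between the genotypes largely fixed this in advance. The log2 fold change ranged from 2.29 to 2.83 for Rundc3b, from 0.96 to 1.42 for Ntrk3, from -2.26 to -1.81 for Nrn1 and from -3.11 to -2.40 for Ankrd33b. The lowest value of Ntrk3, 0.96, was found without Nipbl+/- replicate 1, its highest culture. With the sex term the values were 2.29, 1.09, -2.04 and -2.55 in the same order.

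**Figure D2:**
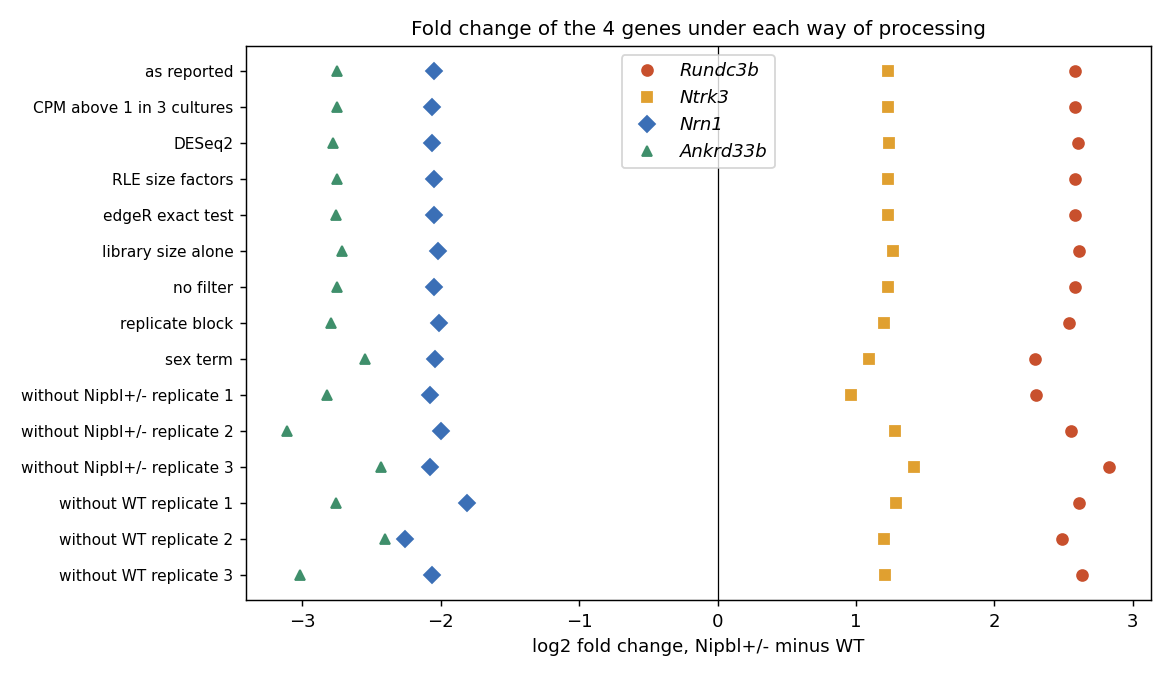
Log2 fold change (Nipbl+/- minus WT) of the 4 genes, 1 symbol per gene, as reported and under each of 14 alternatives, which include other tests, normalizations and filters, a replicate block, a sex term and each culture left out. No symbol crosses the line at 0, which the choice of the genes on this contrast largely fixed. Nrn1 spans -2.26 to -1.81 while Ankrd33b spans -3.11 to -2.40.

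The genes around Ntrk3 in its pathway were read from lists of neurotrophins, receptors and Trk signaling genes. Neurotrophins signal through Trk receptor kinases, p75 (Ngfr) and sortilin family receptors, and Trk receptors act on Ras, phosphatidylinositol 3-kinase and phospholipase C. Of 14 neurotrophin and receptor genes, 7 were on the plus strand and, on the minus strand, 5 were tested besides Ntrk3. None of these 5 was called higher and Sorcs2 was called lower, with 1 of 5 log2 fold changes above 0 and a median of -0.30, against a median of -0.006 over all tested genes. The exact test and DESeq2 also called 0 of the 5 higher and 1 lower. Over all tested genes 1.95% were called in either direction and 16.9% had an unadjusted p under 0.05. Whether 0 or 1 calls in a list of this size depart from that background was not tested, here and in the lists that follow. At the unadjusted threshold the lists differed. None of 3 tested skeletal muscle markers was under it, against 1 higher and 6 lower of 21 synapse genes and 12 higher of 12 macrophage markers. Sorcs2, a sortilin family receptor for neurotrophins and their precursors, fell from 83.7 ± 2.05 to 61.2 ± 3.72 CPM (log2 fold change -0.45, SE 0.06, adjusted p = 0.0176 by edgeR's quasi-likelihood test). The Sorcs2 call was lost without WT replicate 1 or Nipbl+/- replicate 1, at log2 fold changes of -0.44 and -0.43.

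Ntf3, which encodes the ligand of TrkC and was looked up for that reason, had 148, 218 and 146 counts in WT and 310, 176 and 149 in Nipbl+/- MEFs. Its genotypes overlapped, and its log2 fold change was 0.26 (SE 0.29, adjusted p = 0.707). The related receptor gene Ntrk2 is on the plus strand and listed at 0.

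Among 41 Trk receptor adaptors and effectors, 24 were tested, with 16 log2 fold changes above 0 and a median of 0.04. Pik3cb, a catalytic subunit of phosphatidylinositol 3-kinase, was the only gene called, and it rose from 35.2 ± 2.61 to 47.7 ± 4.57 CPM (log2 fold change 0.44, SE 0.09, adjusted p = 0.0454 by edgeR's quasi-likelihood test). At an unadjusted p under 0.05, 5 of the 24 were higher and 0 lower, against 16.9% of all tested genes in either direction, and DESeq2 called 2 higher. The Pik3cb call held without WT replicate 2 and was lost without any of the other 5 cultures, with a log2 fold change between 0.36 and 0.49, and it was lost with the sex term (adjusted p = 0.0754).

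The RUN domain genes are relatives of Rundc3b by domain. Of 10 tested relatives, 0 were called by edgeR's quasi-likelihood test, 1 was lower at an unadjusted p under 0.05, and the exact test of edgeR and DESeq2 each called 1 lower. Their median log2 fold change was 0.04, with 8 of 10 above 0. The 4 most abundant were Dennd5a at 0.08, Dennd5b at -0.16, Fyco1, an adaptor for transport of autophagosomes, at -0.31 (adjusted p = 0.0765) and Plekhm2, an adaptor for lysosome transport, at 0.05. The closest relative, Rundc3a, is on the plus strand and listed at 0.

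Rap GTPases and their regulators were read because RUN domain proteins of this kind bind Rap2. Of 11 tested, 0 were called by edgeR's quasi-likelihood test or its exact test, 1 was higher and 2 lower at an unadjusted p under 0.05, and DESeq2 called 1 lower. The median log2 fold change was -0.08. Rap1b, the most abundant, averaged 297 ± 7.22 CPM over the WT and 281 ± 3.32 CPM over the Nipbl+/- cultures, and Rap2c, a direct Rap2 member, at 111 ± 9.56 and 118 ± 4.67 CPM.

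Genes that neuronal activity induces together with Nrn1 were the next list. Of 13 tested besides Nrn1, 0 were called by edgeR's quasi-likelihood or exact test, 1 was higher and 1 lower at an unadjusted p under 0.05, and DESeq2 called 1 higher. The median log2 fold change was 0.01, with 7 above and 6 below 0. The most abundant were the immediate early genes Btg2 (-0.07), Ier5 (0.22, adjusted p = 0.071), Junb (0.03) and Jun (0.02). The values of the 13 genes ran from -0.37 for Nr4a2 to 0.28 for Npas4. The relative of Nrn1, Nrn1l, is on the plus strand and listed at 0.

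Of 60 synapse genes, 21 were tested, and 17 of these 21 had log2 fold changes below 0, with a median of -0.18. Over all 9061 tested genes, 4675 were below 0. Gria2 was the only gene of the list called; Gria4, described above, is not in the list and was also called lower (adjusted p = 0.0246). Gria2 went from 1.31 ± 0.633 to 0.112 ± 0.0563 CPM (log2 fold change -3.44, SE 0.59, adjusted p = 0.0323 by edgeR's quasi-likelihood test). At an unadjusted p under 0.05, 1 gene was higher and 6 lower, against 16.9% of all tested genes in either direction. The exact test called 4 lower and DESeq2 2 lower, against 213 and 206 over all genes. The Gria2 call held without WT replicate 2 and was lost without any of the other 5 cultures, with a log2 fold change between -3.80 and -3.13. A further 32 genes of this list are on the plus strand and listed at 0.

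REST, with its corepressors, keeps neuronal genes off in other cells. Rest is on the plus strand and listed at 0. Of 5 tested corepressors, 0 were called by edgeR's quasi-likelihood or exact test, 1 was higher at an unadjusted p under 0.05 and DESeq2 called 1 higher. The most abundant was Kdm1a, a histone demethylase, at 0.20 on the log2 scale (SE 0.05, adjusted p = 0.0969), followed by Ctbp1 at 0.02 and Hdac1 at -0.04.

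Other numbered ankyrin repeat domain genes were read beside Ankrd33b. Of 23 tested, 0 were called by edgeR's quasi-likelihood test, its exact test or DESeq2, and 3 were higher and 0 lower at an unadjusted p under 0.05. Their log2 fold changes ran from -0.20 to 0.60, with 11 above and 12 below 0. The most abundant were Ankrd17, Ankrd11, Ankrd50 and Ankrd1, the last of which, a gene induced in stressed muscle, averaged 149 CPM over the WT and 227 CPM over the mutant cultures (0.60 on the log2 scale, SE 0.2, adjusted p = 0.174). Ankrd33, the namesake of Ankrd33b, is on the plus strand and listed at 0.

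**Figure D3:**
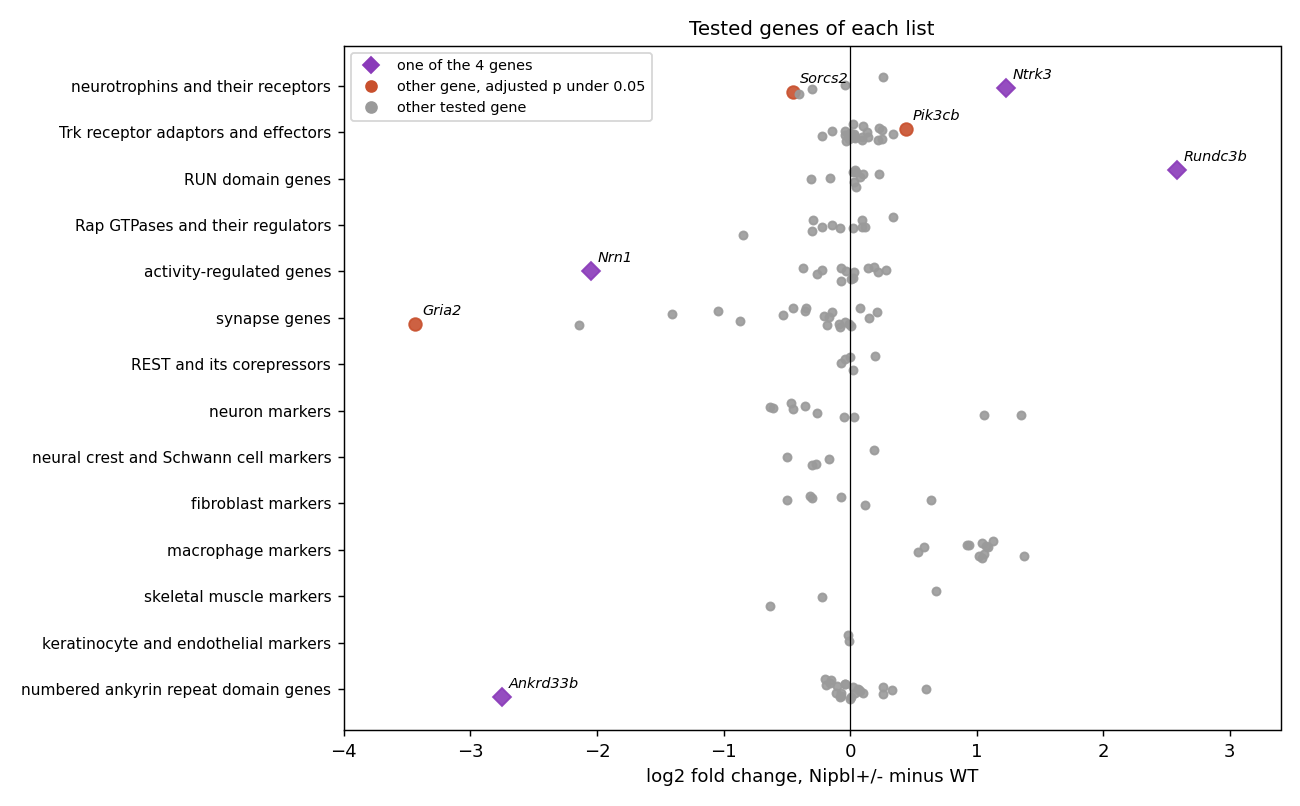
Log2 fold change (Nipbl+/- minus WT) of every tested gene of each list, 1 point per gene and 1 row per list, with the 4 genes as diamonds and the other called genes (Sorcs2, Pik3cb and Gria2) in red; vertical scatter within a row has no meaning. Ntrk3 is at 1.23, Rundc3b at 2.58, Nrn1 at -2.05 and Ankrd33b at -2.75, positions that their selection on this contrast fixed, and all 12 macrophage markers lie to the right of 0.

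Because the 4 genes were grouped for known or likely roles in neurons, neuron markers were read in the same cultures. Of 19 markers on the minus strand, 10 were tested, 3 with log2 fold changes above 0 and 7 below, with a median of -0.31. None was called by edgeR's quasi-likelihood test, its exact test or DESeq2, and 1 was higher and 3 lower at an unadjusted p under 0.05. Rbfox3, Stmn3 and Pou4f1 had at most 2 counts in any culture, and Elavl3, Nefh, Th, Syt1 and Scg2 were also under the filter. The summed level of the 19 was 441 to 474 CPM in WT and 430 to 491 CPM in Nipbl+/- MEFs, of which Ncam1, an adhesion molecule that fibroblasts also make, took 89.2% to 93.8%. Without Ncam1, a split made after the values were seen, the sum was 39.9 to 51.3 CPM in WT and 30.6 to 36.6 CPM in Nipbl+/- MEFs. The largest parts of this sum in WT were Celf4 (13.2 CPM), Gap43 (9.99 CPM), L1cam (6.68 CPM) and Ret (5.96 CPM), all with log2 fold changes below 0. Elavl4 (0.466 CPM in WT, log2 fold change 1.35) and Nefm (0.545 CPM, 1.06) went the other way at lower levels. The lower sum is therefore not a shared fall of the neuron markers. The part of neuronal cells in the 4 differences was not tested.

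Markers of other cell types were summed in the same way. Neural crest and Schwann cell markers (7 on the minus strand, 5 tested) summed to 16.2 to 22.5 CPM in WT and 11.1 to 18.2 CPM in Nipbl+/- MEFs, with Sox10 and Gfap under the filter. Skeletal muscle markers summed to 2.78 to 4.99 and 3.10 to 5.64 CPM, and keratinocyte and endothelial markers to 13.0 to 16.5 and 11.7 to 16.6 CPM, so the genotypes overlapped for each of these lists. None of the tested genes of these 3 lists, 5, 3 and 2, was called by edgeR's quasi-likelihood test, its exact test or DESeq2, and only 1 neural crest gene was lower at an unadjusted p under 0.05.

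The summed level of the macrophage markers was higher in each Nipbl+/- culture than in any WT culture. All 12 on the minus strand were tested and had log2 fold changes above 0, with a median of 1.04, and none was at 0 in any culture. edgeR's quasi-likelihood test called 0 of them, 12 were higher at an unadjusted p under 0.05, the genotypes did not overlap for 7, and the exact test and DESeq2 each called 6. Over all tested genes 16.9% were under that unadjusted p in either direction, and 12.0% lay higher without overlap. Over all genes the exact test called 219 higher and DESeq2 230. Their summed level was 91.6, 67.0 and 73.5 CPM in WT replicates 1 to 3 and 136, 220 and 107 CPM in Nipbl+/- replicates 1 to 3. The sum was highest in Nipbl+/- replicate 2, and Ntrk3 and Rundc3b were highest in Nipbl+/- replicate 1. Replicate 3 was the lowest Nipbl+/- culture for the sum, for Ntrk3 and for Rundc3b. The part of macrophages in the differences of the 4 genes was not tested.

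**Figure D4:**
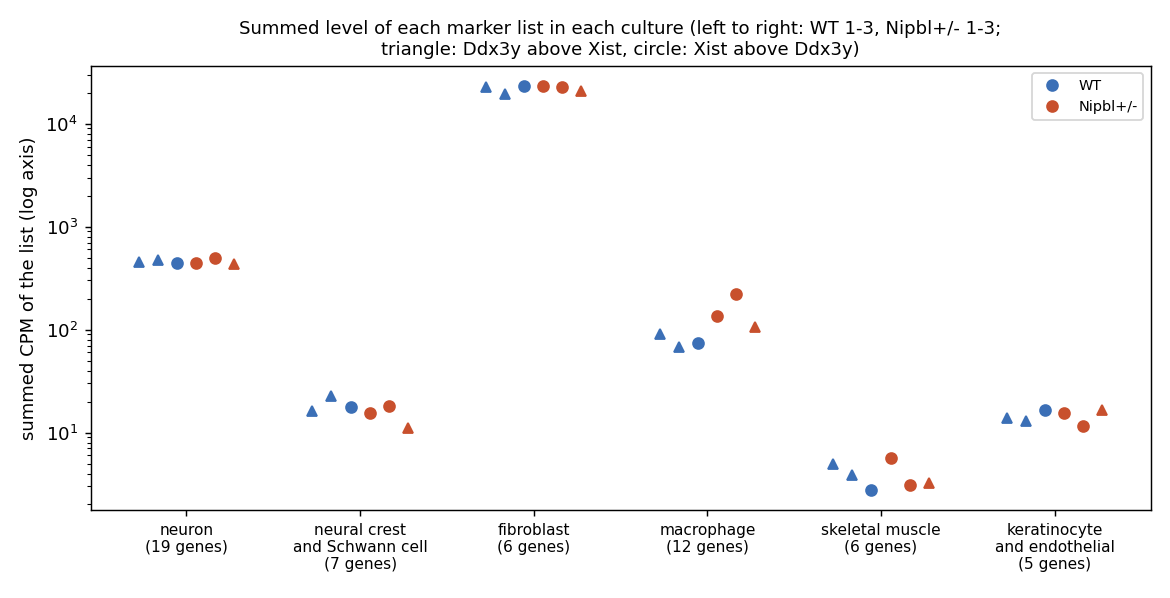
Summed CPM (log axis) of each cell type marker list in each culture, from left to right WT replicates 1 to 3 and Nipbl+/- replicates 1 to 3; triangles are cultures with Ddx3y above Xist and circles those with Xist above Ddx3y. The genotypes are separate only for the macrophage markers (67.0 to 91.6 against 107 to 220 CPM) and overlap for the other 5 lists, and fibroblast markers are the most abundant list in every culture.

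The chromosomal neighbours of the 4 genes were examined because cohesin acts on domains of neighbouring genes. Within 500 kb of the 4 genes the files place 43 other genes, of which 24 are on the plus strand and 11 were tested. None of the 11 was called by edgeR's quasi-likelihood test or its exact test, 3 were under an unadjusted p of 0.05 (Dbf4, Adam22 and Ropn1l; 16.9% of all tested genes were), and DESeq2 called Dbf4. Within 1000 kb, 18 genes were tested and 0 called, with log2 fold changes from -0.34 to 0.30 around Rundc3b, 0.01 to 0.13 around Ntrk3, -0.07 to 0.06 around Nrn1 and -1.33 to 0.10 around Ankrd33b. Of the 6 around Ankrd33b, 4 were below 0, and 3 were lower and 1 higher without overlap between the genotypes. Over all tested genes 10.8% were lower and 12.0% higher in this way. The gene at -1.33 lay more than 500 kb from Ankrd33b, had its direction and was not called.

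Around Rundc3b, 5 neighbours had log2 fold changes between -0.34 and 0.30. The nearest were Dbf4, which activates the replication kinase Cdc7, at 67.6 kb (0.30, SE 0.08, adjusted p = 0.111), and Crot, a peroxisomal acyltransferase, at 343.1 kb on the other side (-0.10, adjusted p = 0.428). Around Ankrd33b, 4 neighbours lay between -0.52 and 0.10, and the nearest, Ropn1l, a gene of sperm and cilia, at 73.5 kb, had the same direction (-0.52, SE 0.2, adjusted p = 0.233). Both tested neighbours of Ntrk3, Mrpl46 (0.02) and Det1 (0.01), were at the same level in both genotypes within 1 SE. None of the 3 neighbours of Nrn1 could be tested.

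**Figure D5:**
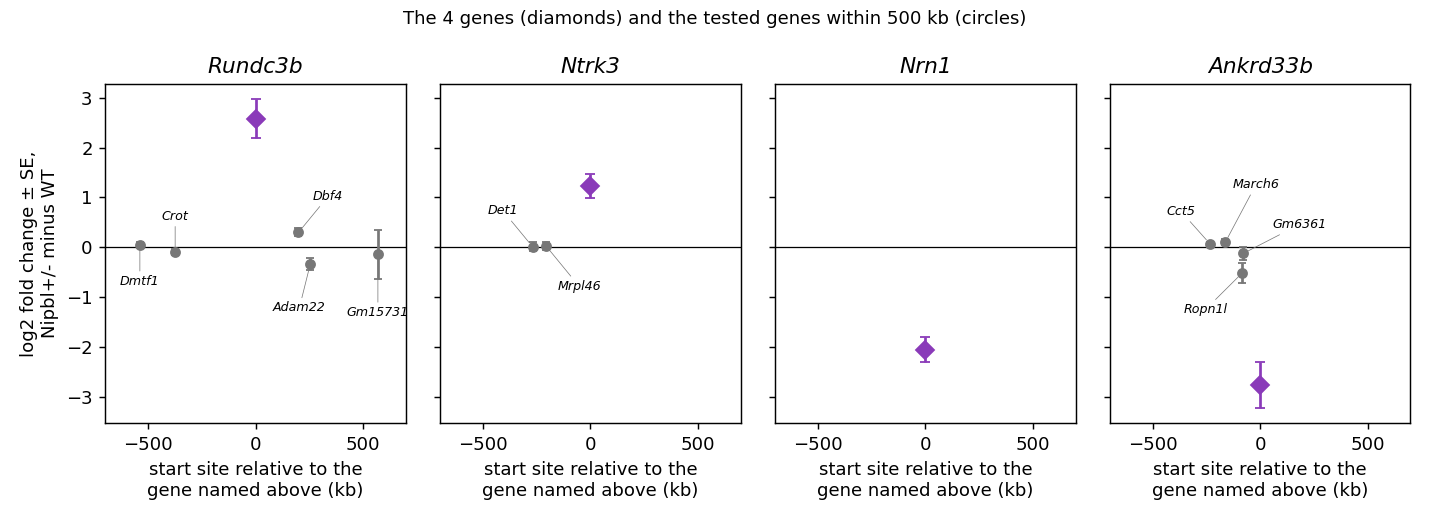
Log2 fold change (Nipbl+/- minus WT, bars 1 SE) of each of the 4 genes (diamonds) and of the tested genes within 500 kb (circles) against the distance between start sites in kb, positive in the direction of transcription. The 11 neighbours lie between -0.52 and 0.30, the 4 genes were selected for their large differences, and no neighbour of Nrn1 was tested.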

How the data were processed

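RNA from 3 WT and 3 Nipbl+/- MEF cultures was analysed, grouped by the labelled genotype. Reads had been aligned by the authors against mm10 using TopHat2 2.0.10, as given in the submitters' processing notes, and the authors deposited raw counts per gene. RPKM values, deposited beside the counts by the authors and corrected for length and depth, served here only to order genes by level. The counting tool and the strand setting are not given in the sources used here. The study calls the cultures biological replicates but does not say whether each came from its own embryo, so p-values measure the spread between these cultures.

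Counts were filtered with filterByExpr (minimum count 10), which kept 9061 genes including all 4 members, normalized by TMM and compared in edgeR 4.0.16 (R 4.3.3; glmQLFit and its quasi-likelihood test), and p-values were adjusted by Benjamini-Hochberg across the tested genes with a threshold of 0.05. SE was obtained as the size of the log2 fold change over the root of its F statistic. CPM are TMM-normalized. The members and gene lists were chosen with earlier results of these data known. Genes named are the members, Nipbl, Xist and Ddx3y, the genes called in each list or else its most abundant tested ones, paralogs, the neighbours called or nearest, the genes ranked next to each member, and the 3 genes most like each member. Ntf3, Rplp0, Ppia, Gria4 beyond its rank, Nr4a2, Npas4, marker genes and the genes under an unadjusted threshold were named outside this rule, after their values were seen. Some genes of the lists are not reported by name here. Transcripts came from GENCODE M21 and promoters from RefSeq.

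The alternatives were edgeR's exact test, DESeq2 1.42.0, RLE size factors, library size alone, no filter, CPM above 1 in 3 cultures, a replicate block, a term for sex class, and each culture left out. Same-numbered cultures did not deviate together (correlations -0.0621, -0.0364 and -0.142), so the numbers were not taken as pairs. The steps were tested on simulated data.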

Additional observations from a re-analysis of the deposited data

How the results depend on the processing

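The log2 fold changes of the 4 genes kept their direction under every alternative run, which their choice on this contrast largely fixed. Counts of called genes depended on the method, and the cause was not tested unless stated. Of the 4 members, 2 were past the threshold with the sex term (90 genes higher and 88 lower over all tested genes), 3 with the replicate block, and 0 to 3 with 1 culture left out. The 94 genes called higher became 230 with DESeq2, 219 with the exact test, 142 with library size alone, 173 with no filter (which tests more genes), 34 with the replicate block, and 1 to 130 with 1 culture left out. The 83 called lower became 206 with DESeq2, 213 with the exact test, 152 with no filter, 52 with the replicate block and 2 to 138 with 1 culture left out. With library size alone, 1425 genes lay higher without overlap and 665 lower, against 1087 and 980. Over the pathway and family lists, 1 gene was called higher, against 4 with DESeq2, 2 with library size alone, 0 with the replicate block or the sex term, and 0 to 2 with 1 culture left out. Lower calls in these lists numbered 2, against 1 with CPM above 1 in 3 cultures, 5 with DESeq2, 6 with the exact test, 4 with no filter and 0 to 3 with 1 culture left out. Of the neighbours, 1 was called by DESeq2 and 0 under the other alternatives. The adjusted p ranged from 2.98e-06 to 0.119 for Gria2, from 0.00165 to 0.158 for Pik3cb and from 5.22e-06 to 0.0914 for Sorcs2. With the replicate block it was 0.0607, 0.101 and 0.029. Replicate numbers did not pair the cultures, and no culture correlated best with its own number. Depth limits Rundc3b in WT (20 counts in all) and Ankrd33b in Nipbl+/- MEFs (23 counts).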

Other observations

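The genes whose log2 CPM followed each of the 4 most closely over the 6 cultures were searched among 8343 tested genes with an average log2 CPM above 0, as a description, since the genotypes form separate groups of 3 cultures. Plcb3, a phospholipase C, and Zfp458, a zinc finger gene, stood among the 3 nearest genes of both Ntrk3 (Pearson's r 0.993 and 0.998) and Rundc3b (0.994 and 0.986). Their levels differed far less between genotypes than those of the 4 genes, with means of 122 CPM (WT) and 147 CPM (Nipbl+/-) for Plcb3 and 5.95 and 6.71 CPM for Zfp458. The nearest gene to Nrn1 was Pla2g4a, a phospholipase A, with means of 272 CPM (WT) and 220 CPM (Nipbl+/-) and an r of 0.984. Zfp408, at 32.1 and 29.5 CPM, was nearest to Ankrd33b (r 0.994).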
